A study of Mus musculus with 27 samples.

Results

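Histone genes were described across 3 stages of mouse somatic cell reprogramming. They were taken from the gene tables by symbol: symbols beginning with Hist, a cluster number and h name the replication-dependent genes, and symbols beginning with H2af, H3f3 or H1f name the replacement variants. The rule found 80 of 20156 listed genes, of which 67 were Hist genes and 13 were replacement variants. Symbols alone chose the genes, and no measured value entered the rule.

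The cells were mouse embryonic fibroblasts (MEFs) and, induced from such MEFs by retroviral delivery of the Yamanaka factors, partially reprogrammed pre-iPSCs and induced pluripotent stem cells (iPSCs). The MEFs came from E13.5 embryos that carried an Oct4-GFP transgene, which reports activity of the Oct4 promoter, and a Rosa26 allele, both hemizygous on a background of CBA/CaJ and C57BL/6J; the study's methods add 129Sv/Jae mothers. All 3 cell types share this origin. Pre-iPSCs and iPSCs were grown with LIF and serum on inactivated MEF feeder cells and passaged 6 times before RNA extraction, whereas MEFs were passaged at most 3 times and received no factors. The study used 2 stable pre-iPSC clones and the iPSCs that correspond to them, but which clone a library came from is not in the labels. RNA-seq gave FPKM, the number of sequenced fragments of a gene scaled to its length and to the depth of the library, in 2 libraries of each cell type, and ChIP-seq of MNase-digested chromatin gave nucleosome calls for H3, H3K4me3 and H3K27me3 in 2 libraries of each cell type and for H3K9me3 in 1. MEF chromatin was digested with another amount of MNase for another time than that of pre-iPSCs and iPSCs, so digestion and cell type cannot be told apart in any ChIP-seq comparison with MEFs.

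Replication-dependent histone genes supply the core histones and linker histones that package newly made DNA. They lie in clusters, mostly lack introns, and are transcribed chiefly in S phase, and their mRNAs usually end in a conserved stem-loop in place of a poly(A) tail. The stem-loop is bound by SLBP and the transcript is cut by a complex that contains the U7 snRNP. Some of these genes can also give polyadenylated mRNAs, which is described in non-dividing and differentiating cells. Replacement variants such as H2A.Z and H3.3 are encoded by scattered genes, mostly with introns and poly(A) tails, and are made through the whole cell cycle.

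The stem-loop that defines the Hist mRNAs was looked for in the 200 bases of mm9 sequence that follow the annotated stop codon, as a stem of 6 base pairs that begins with GG and ends with CC, closed by a loop of 4 bases that begins with T, on the strand of the gene. It was found in 58 of the 61 Hist genes that had a GENCODE stop codon inside the deposited gene model and in 1 of 12 such replacement variants, H2afx, against 0.464% of 19606 genes in all. Its first base lay 22 to 59 bases after the stop codon, with a median of 31. The examples belong to genes whose levels are described further on; capitals mark the stem and loop, and 5 bases are shown on either side.
Hist1h4a, chr13:23852664-23852689, minus strand: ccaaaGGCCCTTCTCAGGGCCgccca
Hist1h4i, chr13:22132830-22132855, minus strand: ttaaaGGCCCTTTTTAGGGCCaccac
Hist1h2af, chr13:23626223-23626248, plus strand: ccaaaGGCTCTTTTCAGAGCCaccac
Hist1h1c, chr13:23831376-23831401, plus strand: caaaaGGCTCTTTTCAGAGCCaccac
Hist1h2bc, chr13:23776511-23776536, plus strand: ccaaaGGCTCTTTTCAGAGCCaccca
Hist3h2ba, chr11:58762846-58762871, plus strand: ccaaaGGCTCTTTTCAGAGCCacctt
H2afx, chr9:44143318-44143343, plus strand: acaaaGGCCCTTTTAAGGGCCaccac
Hist1h2af, Hist1h1c, Hist1h2bc and Hist3h2ba therefore carry the same 16 capital bases, although their mRNA levels moved in opposite directions between the cell types. H2afx is known to give both a stem-loop mRNA and a polyadenylated mRNA.

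The deposited gene models differed in where they ended. AATAAA or ATTAAA, the usual poly(A) signals, stood in the last 60 bases of 15 of the 67 Hist models and of 11 of the 13 variant models, against 70.6% of all listed genes. The 15 Hist models are Hist1h1c, Hist1h1d, Hist1h1t, Hist1h2ae, Hist3h2a, Hist1h2bc, Hist1h2be, Hist1h2bp, Hist1h2bq, Hist2h2be, Hist3h2ba, Hist2h3c1, Hist1h4h, Hist1h4i and Hist4h4. The other 52 ended without such a signal, and 32 Hist models spanned only from start codon to stop codon, so that their TSS here is the start codon. The stem-loop was present in 13 of the 15 models with a poly(A) signal. This division rests on the annotation and the sequence, and it was drawn after expression values had been seen, so no test was made on it.

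The 250 bases upstream of each model start were searched for CCAAT on either strand and for TATAAA on the strand of the gene. CCAAT was present in 55 of 67 Hist genes (82.1%), against 35.5% of all genes, and TATAAA in 30 (44.8%), against 8.11%. All 18 H2A and all 18 H2B genes held CCAAT, as did 6 of 6 H1 genes and 9 of 12 H3 genes, whereas 4 of 13 H4 genes did. These are not all separate promoters, since some models overlap and opposed pairs share sequence. The deposited start of Hist1h2be lies inside the model of Hist1h1e, so the bases searched for it belong to that gene. The next sequences are the promoter of Hist3h2ba, the Hist gene that rose most in pre-iPSCs, and the region between the opposed starts of Hist1h2ac and Hist1h2bc, a shared promoter whose 2 genes differed widely in level; capitals mark CCAAT on either strand and TATAAA on the strand of a gene, which for the minus-strand gene Hist1h2ac reads TTTATA.
Hist3h2ba, chr11:58762163-58762412, plus strand: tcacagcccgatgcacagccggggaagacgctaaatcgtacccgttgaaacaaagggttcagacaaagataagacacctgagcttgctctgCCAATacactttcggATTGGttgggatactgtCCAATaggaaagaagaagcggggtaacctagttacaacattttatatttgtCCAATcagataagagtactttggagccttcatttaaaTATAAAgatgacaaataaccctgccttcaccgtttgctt
Hist1h2ac and Hist1h2bc, chr13:23775829-23776067, plus strand: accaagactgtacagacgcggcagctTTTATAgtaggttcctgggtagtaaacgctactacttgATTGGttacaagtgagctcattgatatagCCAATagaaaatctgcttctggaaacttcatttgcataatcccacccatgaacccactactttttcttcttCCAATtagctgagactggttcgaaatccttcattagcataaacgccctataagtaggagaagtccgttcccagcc
Hist1h2bc lies on the plus strand and Hist1h2ac on the minus strand. Of 14 such opposed pairs with starts within 1000 bp, 13 joined an H2A gene with an H2B gene, and 49 of the 80 histone genes had the start of another within 2000 bp. These counts are of models, and Hist1h2bq is paired with both Hist1h2ao and Hist1h2ap, whose models overlap. Windows of 1000 bp around these starts share reads.

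The Hist genes lie mainly in 1 cluster, with 53 genes on chromosome 13, 10 on chromosome 3, 3 on chromosome 11 and 1 on chromosome 6. Their sequences resemble one another closely. Over the Hist genes with a value the median share of 50-base words in the model was 56.6% for words that occur again in the mm9 genome, against 4.40% over the variants, and the authors kept uniquely mapped reads, so levels of near-identical copies are uncertain. Hist1h2ao, Hist1h2ap and Hist1h2bq had TSS windows made wholly of repeated words and no reads in any ChIP-seq library, and Hist1h4m and Hist1h4n had 93% repeated.

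Between 10370 and 10995 genes reached 1 FPKM in an RNA-seq library. The tables of library 1 and of library 2 were normalized separately, and MEF library 2 had a summed level of 818207 FPKM against 392424 to 527799 in the other 5. Between the libraries of 1 cell type, Pearson's r across the 67 Hist genes was 0.71 in pre-iPSCs, 0.78 in iPSCs, then 0.88 in MEFs, against 0.96 to 0.98 across all genes. The 8 fibroblast markers summed to 8853 and 9770 FPKM in MEFs, to 1364 and 1089 in pre-iPSCs and to 496 and 633 in iPSCs, with none at 0 in any library. The median fibroblast marker was at 851 and 358 FPKM in MEFs, 71.7 and 22.9 in pre-iPSCs, then 41.4 and 45.9 in iPSCs, so the last 2 overlapped. Vim fell from 845 and 754 FPKM in pre-iPSCs to 215 and 308 in iPSCs, and Fn1 and Thy1 had negative log2 differences there. Col3a1, Postn, Col1a2, Col1a1 and Twist2 had positive ones. The 8 pluripotency markers summed to 0.147 and 0.949 FPKM in MEFs, 676 and 3362 in pre-iPSCs, then 2090 and 1807 in iPSCs. Pou5f1 at 378 and 3184 FPKM and Sox2 at 272 and 171, both among the delivered factors, made up most of the pre-iPSC sums, and the median marker was at 0 in both MEF libraries, 1.11 and 0.878 in pre-iPSCs, then 60.8 and 94.7 in iPSCs. Of the others, Nanog, which marks the pluripotent state, was at most 0.519 FPKM in pre-iPSCs and was 49.5 and 73.6 in iPSCs. Zfp42, Esrrb and Dppa3 did not exceed 0.0837 FPKM in pre-iPSCs. Utf1, at 23.2 and 1.67 FPKM, and Dppa5a, at 1.7 and 5.01, already exceeded their MEF levels there. Their log2 differences between pre-iPSCs and MEFs were 3.01 and 1.81 (limma adjusted p = 0.024 and 0.019). In iPSCs Utf1 reached 544 and 220 FPKM and Dppa5a 725 and 842. The pre-iPSCs and iPSCs were grown on fibroblast feeders, and the part of feeder RNA in the results was not tested. In these bulk samples, fewer cells of a type and less RNA per cell cannot be told apart.

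Replacement variants made up most of the histone mRNA that was measured. Their FPKM summed to 1305 ± 261 (SD, n = 2) in MEFs, 2284 ± 409 in pre-iPSCs, then 1722 ± 236 in iPSCs, while the 67 Hist genes summed to 265 ± 171, 175 ± 28.2 and 123 ± 4.4. The ratio of variants to Hist genes was 7.79 and 3.86 in the MEF libraries and 12.9 to 15.0 in the other 4. H2afz, H3f3a and H3f3b alone gave 69.9% to 78.6% of the variant sum. The sources used here do not say whether RNA was selected for poly(A) tails. The tables list 0 of the small RNAs without a poly(A) tail that were looked for, so the selection could not be examined from them.

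**Figure D1:**
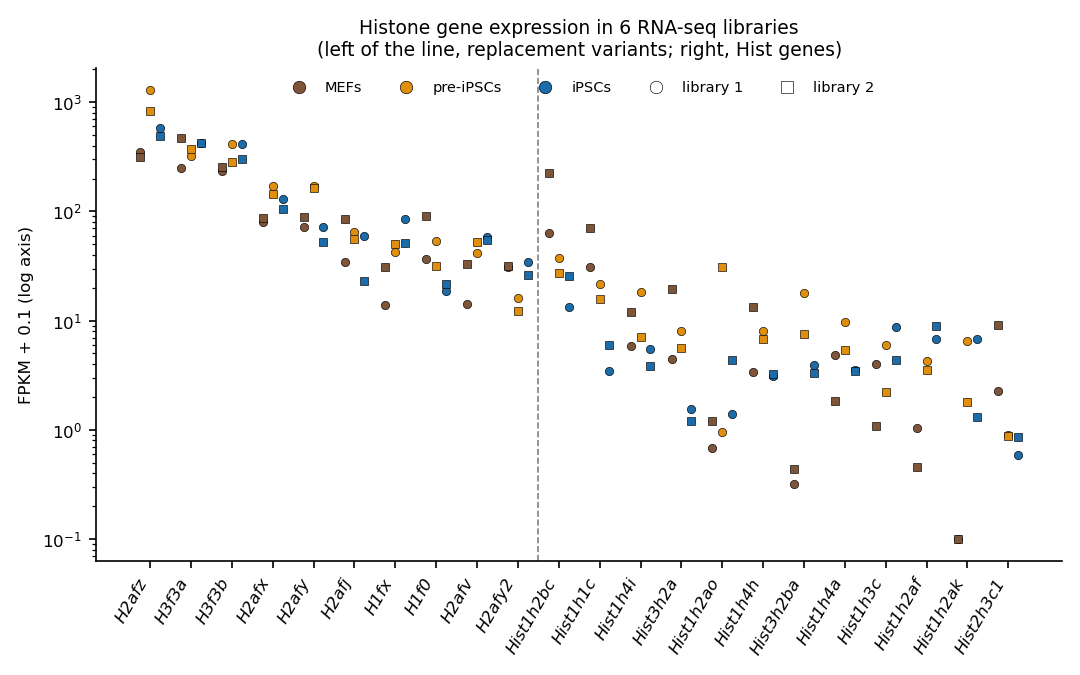
FPKM + 0.1 (log axis) of the 10 replacement variants that passed the filter and of the Hist genes named by rule, with MEFs in brown, pre-iPSCs in orange and iPSCs in blue, circles for library 1 and squares for library 2. Variants lie above most Hist genes, and Hist3h2ba is below 1 FPKM in both MEF libraries and above 3 in the other 4.

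The expression test took genes whose 6 libraries averaged 0.5 FPKM or more, which 53 of the 80 histone genes reached (43 Hist genes and 10 variants). Of the 27 others, 7 Hist genes were listed at 0 in every library (Hist1h1t, Hist1h2aa, Hist1h2ad, Hist2h2aa1, Hist2h2aa2, Hist2h2ab and Hist2h3b), and H1fnt, H1foo and H2afb1, variants of germ cells, did not exceed 0.245 FPKM in any library. The other 17 were Hist genes of lower mean level. Differences are of log2(FPKM + 1), fitted with limma over all 12401 genes that passed, and called genes are those that changed 2-fold or more with an adjusted p under 0.05. In pre-iPSCs against MEFs, 3 histone genes rose and 1 fell, which is 7.55% of those tested, against 16.4% of all genes (7.39% higher and 9% lower). Between pre-iPSCs and iPSCs, 1 fell and none rose (1.89%, against 8.62% of all genes, with 3.91% higher and 4.71% lower; 9 of the 53 had an unadjusted p under 0.05, or 17.0%, against 21.6% of all genes). In iPSCs against MEFs, 12 rose and 4 fell. The 22.6% that rose compare with 10.3% of all genes, and the 7.55% that fell with 15.5%. The median difference of the 53 genes in this comparison was 0.45, against -0.14 over all genes tested. Without regard to the test, both iPSC libraries lay above both MEF libraries for 26 of the 53, against 26.7% of all genes tested, and below them for 10, against 36.2%.

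The counts moved with the libraries in the test, over histone genes as over all genes. Without iPSC library 1 the test called 1 histone gene in iPSCs against MEFs, Hist1h2af, and 655 of all genes (5.28%), and without iPSC library 2 it called 2, Hist1h2ah and Hist1h2ap, neither of which was called with all libraries, and 1160 of all genes (9.35%). Hist1h2ah was at 7.58 FPKM in iPSC library 1 and at most 0.707 in the other 5. With all low genes kept in the test the count was 8, against 2371 of 16963 genes (14.0%). In pre-iPSCs against MEFs, the count was 11 without MEF library 1, 8 without MEF library 2 and 1 without either iPSC library, against 23.1%, 19.0% and 10.8% to 10.9% of all genes. In iPSCs against pre-iPSCs, it was 11 without MEF library 1, 10 without MEF library 2, 3 without either pre-iPSC library and 0 without either iPSC library, against 17.2%, 17.1%, 5.66% to 5.98% and 0.290% to 0.734% of all genes. The 21 calls kept their direction in all 10 other settings or subsets of libraries, but not their side of the threshold. Of the 10, H2afv was called in 3 and H1fx in 4, and the 14 Hist genes called in iPSCs against MEFs were called in 6 to 9. In pre-iPSCs against MEFs, Hist2h3c1 was called in 3, Hist1h2af in 4, Hist1h2ak in 6 and Hist3h2ba in 10, and in iPSCs against pre-iPSCs Hist1h1c was called in 5.

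Among the replacement variants, H2afz, H2afy and H2afx were highest in pre-iPSCs, and H2afy2 was lowest there, but no variant was called in a comparison with pre-iPSCs. H2afz, which encodes H2A.Z, was listed at 352 and 314 FPKM in MEFs, 1283 and 825 in pre-iPSCs, with 586 and 494 in iPSCs. The 3 cell types did not overlap. Its difference was 1.63 ± 0.51 (SE) in pre-iPSCs against MEFs (limma adjusted p = 0.072) and -0.94 ± 0.51 in iPSCs against pre-iPSCs (adjusted p = 0.36).

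H2afy, which encodes macroH2A1, a variant associated with inactive chromatin, was at 72.0 and 89.3 FPKM in MEFs, 170 and 165 in pre-iPSCs, then 72.1 and 52.2 in iPSCs. MEFs and iPSCs overlapped, and pre-iPSCs stood above both. The difference between pre-iPSCs and iPSCs was -1.43 ± 0.38 (limma adjusted p = 0.066). H2afy2, which encodes macroH2A2, was lowest in pre-iPSCs, at 30.6 and 31.8 FPKM in MEFs, 16.0 and 12.2 in pre-iPSCs, then 34.3 and 26.1 in iPSCs. Its difference in pre-iPSCs against MEFs was -1.1 ± 0.34 (adjusted p = 0.069).

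Of the linker histone variants, H1fx was called in 1 comparison and H1f0 in none. H1fx was at 13.8 and 30.9 FPKM in MEFs, 42.7 and 50.7 in pre-iPSCs, then 85.0 and 51.2 in iPSCs. All pre-iPSC and iPSC libraries stood above the MEF libraries, and the difference of 1.62 ± 0.47 in iPSCs against MEFs was called (limma adjusted p = 0.042). H1f0, the linker histone that accumulates in differentiated cells, was at 36.3 and 91.4 FPKM in MEFs, 53.9 and 31.8 in pre-iPSCs, with 18.4 and 21.7 in iPSCs. Both iPSC libraries lay below the other 4, and the difference of -1.49 ± 0.50 in iPSCs against MEFs was not called (adjusted p = 0.068).

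H2afv, which encodes the second H2A.Z protein, rose from 14.1 and 33.1 FPKM in MEFs to 57.7 and 54.2 in iPSCs, with 41.2 and 52.5 in pre-iPSCs (difference of iPSCs and MEFs 1.33 ± 0.41, limma adjusted p = 0.0499). No call was made for H3f3a or H3f3b, which encode H3.3, the H3 that is deposited outside replication. H3f3a was at 252 and 475 FPKM in MEFs, 319 and 376 in pre-iPSCs, then 428 and 425 in iPSCs, and H3f3b was at 235 to 419 in the 6 libraries, with MEFs the lowest. Differences of H3f3a and H3f3b were 0.30 ± 0.49 and 0.55 ± 0.45 in iPSCs against MEFs. H2afx, whose protein marks DNA breaks when phosphorylated, was at 80.1 and 87.0 FPKM in MEFs, 170 and 143 in pre-iPSCs, with 130 and 104 in iPSCs, and H2afj at 34.6 and 84.5, 65.1 and 55.3, and 58.9 and 22.7. Neither was called in any comparison.

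The Hist genes differed by the 3' end of the model. The 15 models with a poly(A) signal summed to 113 and 353 FPKM in MEFs, 120 and 73.1 in pre-iPSCs, then 33.2 and 45.3 in iPSCs. The 52 models without one summed to 31.3 and 33.4 FPKM in MEFs, 74.6 and 82.0 in pre-iPSCs, with 92.4 and 74.1 in iPSCs. The share of the Hist sum in models with a poly(A) signal came to 78.2% and 91.4% in MEFs, 61.8% and 47.1% in pre-iPSCs, then 26.4% and 37.9% in iPSCs, without overlap between the cell types. In an alternative chosen after the values were seen, leaving out Hist1h2bc and Hist1h1c gave shares of 36.8% and 63.9% in MEFs, 45.2% and 27% in pre-iPSCs, then 15.3% and 15.8% in iPSCs, so that MEFs and pre-iPSCs overlapped and iPSCs remained below both. Without Hist1h2ao, whose model consists of repeated words, the models without a signal summed to 51.3 FPKM in pre-iPSC library 2, and the share there was 58.8%. Hist1h2bc and Hist1h1c gave 65.5% and 76.0% of the whole Hist sum in MEFs and 13.1% and 26.3% in iPSCs.

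**Figure D2:**
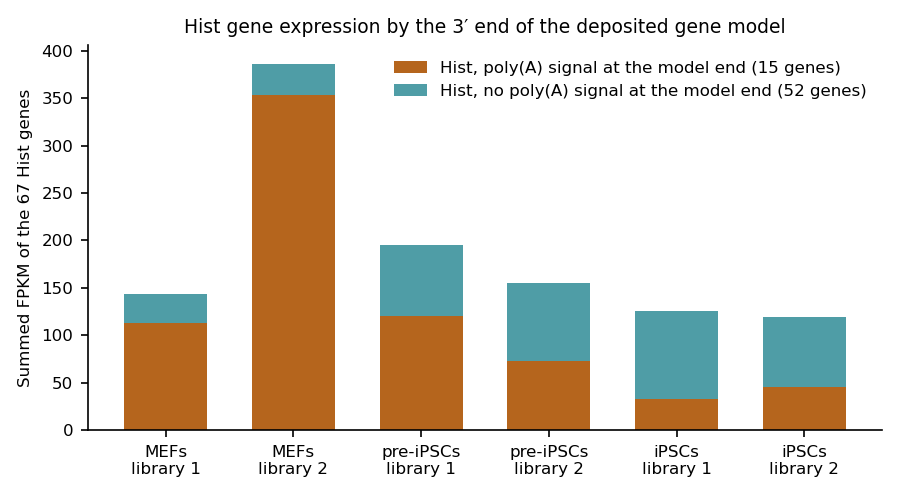
Summed FPKM of the 67 Hist genes in each RNA-seq library, split into models that end with a poly(A) signal (brown, 15 genes) and models that do not (teal, 52 genes). The brown part is 78.2% and 91.4% of the MEF bars and 26.4% and 37.9% of the iPSC bars.

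In iPSCs against MEFs the 4 called falls were all among the 9 tested models with a poly(A) signal, in which 1 gene rose, Hist3h2ba, and the median difference was -0.95. Among the 34 tested models without a signal, 9 rose and none fell, and the median was 0.99. On this scale a called fall needs a mean MEF level of at least 1 FPKM. In the MEF libraries, 8 and 9 of the 52 models without a signal reached 1 FPKM, and 6 and 7 of the 15 with one. A fall was thus out of reach for many models without a signal. Those at 0 in MEFs, such as Hist1h2ak and Hist1h4f, passed the filter through the other cell types alone. Of all genes tested, 10.3% rose and 15.5% fell. In pre-iPSCs against MEFs the medians were -0.44 and 0.39. By protein, the medians in iPSCs against MEFs were 0.11 for 4 H1 genes, 0.94 for 11 H2A, 0.24 for 10 H2B, 0.63 for 8 H3 and 1.1 for 10 H4 genes.

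**Figure D3:**
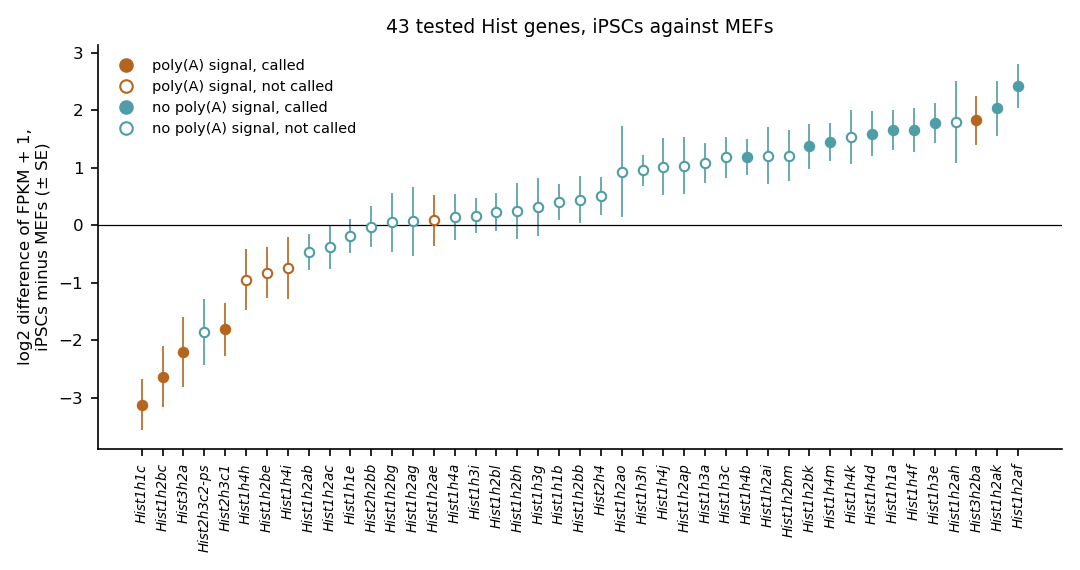
log2 difference of FPKM + 1 between iPSCs and MEFs (± SE, limma, 2 libraries of each) for the 43 tested Hist genes in rank order, brown for models with a poly(A) signal and teal for those without, filled where called. The 3 lowest genes are brown, filled and below -2, and filled teal points occur above 1 and nowhere below 0. The median Hist gene was at 0.347 and 0.379 FPKM in MEFs, so the added 1 makes many differences smaller than the log2 ratio of FPKM. At such levels a called fall was out of reach for many teal genes. The values of Hist1h2ak and Hist1h4f, listed at 0 in MEFs, depend on the added 1 altogether.

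Hist1h2bc, an H2B gene at chr13:23776068-23784349 whose model runs through an intron to a distant poly(A) site, had the highest mean level of the Hist genes over the 6 libraries, though Hist1h2ao was above it in pre-iPSC library 2. It was at 63.1 and 224 FPKM in MEFs, 37.2 and 27 in pre-iPSCs, with 13.1 and 25.5 in iPSCs. The MEF libraries lay above the other 4. The difference in iPSCs against MEFs was -2.63 ± 0.53, a called fall (limma adjusted p = 0.012). Its opposed neighbour Hist1h2ac, an H2A gene on the same promoter, stayed between 0.107 and 1.32 FPKM in the 6 libraries.

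Hist1h1c, a linker histone gene at chr13:23830676-23832236, was at 31.2 and 69.8 FPKM in MEFs, 21.7 and 15.7 in pre-iPSCs, then 3.38 and 5.88 in iPSCs. The cell types did not overlap, and the gene stepped down at each stage. Its difference was -3.12 ± 0.45 in iPSCs against MEFs (limma adjusted p = 0.0036) and -1.83 ± 0.45 in iPSCs against pre-iPSCs (adjusted p = 0.049), the single called histone gene in that comparison. It was -1.29 ± 0.45 in pre-iPSCs against MEFs (adjusted p = 0.095). Another linker histone gene, Hist1h1a, was at 0.507 and 0.259 FPKM in MEFs, 0.546 and 0.976 in pre-iPSCs, with 4.14 and 2.65 in iPSCs and rose by 1.65 ± 0.35 between MEFs and iPSCs (adjusted p = 0.013).

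Hist3h2a and Hist3h2ba are the H2A and H2B genes of the small cluster on chromosome 11, and in iPSCs against MEFs they changed in opposite directions. Hist3h2a was at 4.32 and 19.5 FPKM in MEFs, 7.90 and 5.46 in pre-iPSCs, then 1.45 and 1.1 in iPSCs. The iPSC libraries were the lowest, with a difference from MEFs of -2.20 ± 0.61 (limma adjusted p = 0.035). Hist3h2ba was at 0.220 and 0.335 FPKM in MEFs, 17.7 and 7.46 in pre-iPSCs, with 3.85 and 3.24 in iPSCs. It rose by 3.3 ± 0.43 in pre-iPSCs against MEFs (adjusted p = 0.0036) and was 1.83 ± 0.43 above MEFs in iPSCs (adjusted p = 0.020).

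The H3 gene Hist2h3c1 fell from 2.18 and 9.07 FPKM in MEFs to 0.786 and 0.783 in pre-iPSCs (difference -1.66 ± 0.46, limma adjusted p = 0.049) and 0.488 and 0.754 in iPSCs (difference -1.81 ± 0.46, adjusted p = 0.027). In its model, 35.6% of the words were repeated elsewhere. Of the 3 H4 genes with a poly(A) signal, Hist1h4i and Hist1h4h were tested and not called, and Hist4h4 was below the filter. Hist1h4i was at 5.73 and 11.8, 18.3 and 6.91, and 5.38 and 3.78 FPKM in MEFs, pre-iPSCs and iPSCs, and Hist1h4h at 3.3 and 13.2, 7.99 and 6.69, and 2.98 and 3.13.

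Rises among Hist genes without a poly(A) signal were of low-level genes. Hist1h2af, an H2A gene at chr13:23625780-23626172, was at 0.942 and 0.352 FPKM in MEFs, 4.19 and 3.43 in pre-iPSCs, then 6.66 and 8.85 in iPSCs. The cell types did not overlap and were in the order MEFs, pre-iPSCs, iPSCs. It rose by 1.56 ± 0.39 in pre-iPSCs (limma adjusted p = 0.034) and by 2.42 ± 0.39 in iPSCs (adjusted p = 0.0053) against MEFs.

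Hist1h2ak, also an H2A gene, was listed at 0 in both MEF libraries, at 6.47 and 1.71 FPKM in pre-iPSCs and at 6.66 and 1.21 in iPSCs. It was called in both comparisons with MEFs (limma adjusted p = 0.022 and 0.020). Hist1h4f was likewise listed at 0 in both MEF libraries, at 2.57 and 0.584 FPKM in pre-iPSCs and at 2.30 and 2.00 in iPSCs, and was called in iPSCs against MEFs (adjusted p = 0.019). No fold is given against a group listed at 0. The other called rises in iPSCs against MEFs were Hist1h3e (1.78), Hist1h4d (1.60), Hist1h4m (1.45), Hist1h2bk (1.37) and Hist1h4b (1.19), of which Hist1h4m overlaps the model of Hist1h4n. Hist1h4a and Hist1h3c, among the 10 highest Hist genes, were at 4.78 and 1.74, 9.65 and 5.26, and 3.45 and 3.33 FPKM and at 3.93 and 0.990, 5.82 and 2.13, and 8.64 and 4.24 FPKM in the same order of cell types, and neither was called. Hist1h2ao ranked high through 1 library, pre-iPSC library 2 with 30.7 FPKM, against 0.585 to 4.30 in the other 5.

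These levels rest on few sequenced fragments. For 43 Hist models under 700 bp with 1 exon and no overlap, FPKM values were turned back into numbers of fragments. The depth of the library and a length offset were chosen to bring most values above 0 within 0.05 of a whole number. All of them (100%) came that close, but the fit sought this share, so it is no separate check of the numbers. The 43 genes together had 101 and 175 fragments in MEFs, 393 and 263 in pre-iPSCs, with 288 and 208 in iPSCs, and the median gene had 1 to 4. Hist3h2ba had 1 and 2 fragments in MEFs, 100 and 47 in pre-iPSCs, then 23 and 17 in iPSCs, and Hist1h2af had 2 and 1, 11 and 10, and 19 and 22.

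The 40 of these genes without a poly(A) signal had 69 and 63 fragments in MEFs, against 180 and 153 in pre-iPSCs, then 227 and 164 in iPSCs. Scaled to depth, these were 6.45 and 4.58 in MEFs, in the units of the FPKM denominator, and 10.3 to 16.5 in the other 4 libraries. This is a description, since the division was drawn with expression values known.

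Genes that act on histone mRNA and genes of S phase were read beside the Hist genes, from lists chosen with earlier results known. Of 27 factors of histone transcription and 3' processing, all past the filter, 1 rose in pre-iPSCs against MEFs, 1 between pre-iPSCs and iPSCs, then 5 in iPSCs against MEFs, against 7.39%, 3.91% and 10.3% of all genes, and none was called lower, with medians of 0.13, 0.21 and 0.58. The cap-binding subunit Ncbp2 was at 27.4 and 34.1 FPKM in MEFs, 12.5 and 15.8 in pre-iPSCs, then 9.61 and 18.5 in iPSCs, below MEFs without a call (difference of pre-iPSCs and MEFs -1.07, limma adjusted p = 0.083; of iPSCs and MEFs -1.14, adjusted p = 0.052). Slbp, which binds the stem-loop, was at 31.0 and 30.7 FPKM in MEFs, 29.8 and 18.7 in pre-iPSCs, with 74.2 and 62.2 in iPSCs. It rose by 1.48 in iPSCs against pre-iPSCs (limma adjusted p = 0.042) and was 1.11 higher than in MEFs without a call (adjusted p = 0.054). The 5 called in iPSCs against MEFs were Pou2f1 (1.74), the octamer-binding factor Oct-1, Zfp473 (1.60), a zinc finger protein of the U7 complex, Ccne1 (1.44), a cyclin of the G1/S transition, Cpsf1 (1.14), a cleavage factor subunit, and Upf1 (1.12), which takes part in the decay of histone mRNA. Pou2f1 was also the one called in pre-iPSCs against MEFs (1.80).

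Of 33 S-phase genes, 4 rose in pre-iPSCs against MEFs, 1 between pre-iPSCs and iPSCs, then 14 in iPSCs against MEFs, against the same 7.39%, 3.91% and 10.3% of all genes, and none was called lower, with medians of 0.53, 0.64 and 1.02. Ung, a uracil glycosylase, was at 5.62 and 2.70 FPKM in MEFs, 14.1 and 6.77 in pre-iPSCs, then 37.3 and 35.4 in iPSCs, and its difference between iPSCs and MEFs was 2.91 (limma adjusted p = 0.0027). Cdt1, which licenses replication origins, differed by 2.69, the helicase subunit Mcm5 by 2.42, the polymerase subunit Pold1 by 2.29 and the helicase subunit Mcm3 by 1.98 in the same comparison. The summed level of the list was 1052 and 706 FPKM in MEFs, 1526 and 935 in pre-iPSCs, with 2096 and 1530 in iPSCs. Its part in the levels of Hist genes was not tested.

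Promoter levels of the marks are reads of nucleosomes centred within 1000 bp of the TSS, as RPKM, which is scaled to the length of the window and to the uniquely mapped reads of the library. The median level of H3K4me3, the mark of active promoters, was lower over Hist genes than over all genes in every library, and lowest in iPSCs. The median Hist promoter had 0.982 and 0.700 RPKM in MEFs, 0.552 and 0.649 in pre-iPSCs, then 0.496 and 0.428 in iPSCs, against 1.22 and 0.955, 0.858 and 0.812, and 0.900 and 0.822 for all genes. As a ratio to all genes these were 0.806 and 0.733 in MEFs, 0.643 and 0.800 in pre-iPSCs, then 0.552 and 0.520 in iPSCs, whereas the median variant promoter had 1.56 and 0.923 RPKM in MEFs and 1.09 and 1.02 in iPSCs. The same ratio for total H3 was lower still, at 0.462 and 0.478, 0.126 and 0.459, and 0.284 and 0.432. No mark level was divided by H3, so a lower RPKM here does not show less of the mark per nucleosome recovered. In these windows a median of 19.3% of 50-base words of Hist genes were repeated elsewhere, against 0.922% for variants, and the part of unique mapping in the levels of any mark was not tested.

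**Figure D4:**
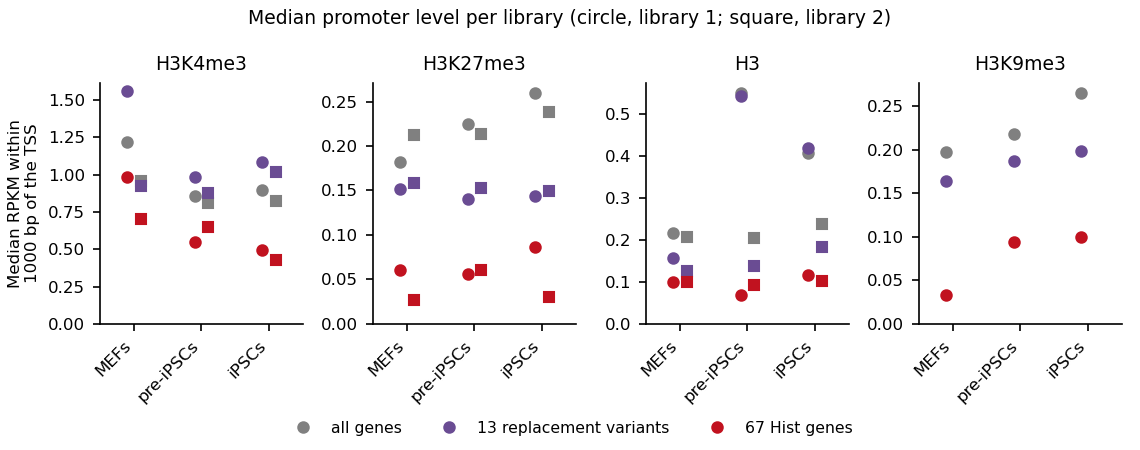
Median RPKM within 1000 bp of the TSS in each ChIP-seq library (circle, library 1; square, library 2) for all genes (grey), replacement variants (violet) and Hist genes (red). Hist genes are the lowest in every panel and library, and their H3 median is 0.0693 in pre-iPSC library 1 and 0.116 in iPSC library 1, against 0.550 and 0.408 for all genes.

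Both iPSC libraries lay below both MEF libraries in H3K4me3 RPKM at 47 of the 67 Hist promoters and 6 of the 13 variant promoters, together 53 of 80, against 44.4% of all genes, and above at 4 of 80, against 15.5%. In pre-iPSCs against MEFs, 39 of 80 were lower in both libraries, against 46% of all genes. On edgeR's scale, which is set by trimmed means over all promoters, 55 of the 60 Hist promoters tested had negative differences in iPSCs against MEFs with a median of -0.48, and the 12 variants had a median of 0.00. In iPSCs against pre-iPSCs the Hist median was -0.35, and in pre-iPSCs against MEFs it was -0.13.

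Few single promoters passed the test. With edgeR's quasi-likelihood test over 17700 promoters, 6 of 72 histone promoters were called in iPSCs against MEFs (8.33%, against 13.8% of all promoters), 3 higher and 3 lower, against 9.72% and 4.1%. None was called in the other 2 comparisons, against 3.83% of all promoters in pre-iPSCs against MEFs (3.02% higher and 0.814% lower) and 0% in iPSCs against pre-iPSCs; 9 and 5 of the 72 had an unadjusted p under 0.05 (12.5% and 6.94%, against 19.6% and 8.93% of all promoters). DESeq2 called none of them, and called 0.156%, 0% and 0.600% of all promoters in pre-iPSCs against MEFs, iPSCs against pre-iPSCs, then iPSCs against MEFs. Scaling to unique reads without trimmed means gave 23 calls in iPSCs against MEFs, 2 higher and 21 lower, but it also turned the split over all promoters, to 842 higher and 2370 lower of 17644 (4.77% and 13.4%). Without MEF library 1 the count was 1, Hist1h1b, and 3.24% of all promoters were called.

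Hist1h1b, a linker histone gene, had 1.93 and 2.16 RPKM of H3K4me3 in MEFs, 0.950 and 1.01 in pre-iPSCs, with 0.807 and 0.658 in iPSCs, without overlap between the cell types. The difference of -1.15 ± 0.27 in iPSCs against MEFs was called (edgeR adjusted p = 0.0038), while its mRNA stayed between 0.158 and 1.19 FPKM. H3f3a had 2.47 and 1.66 RPKM in MEFs, 1.41 and 0.844 in pre-iPSCs, then 1.09 and 0.724 in iPSCs, with a difference of -0.83 ± 0.26 (adjusted p = 0.028). Hist1h2ak, whose mRNA rose, had 1.19 and 0.700 RPKM in MEFs, 0.337 and 0.747 in pre-iPSCs, with 0.279 and 0.362 in iPSCs (difference -1.19 ± 0.41, adjusted p = 0.046).

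The 3 promoters called for more H3K4me3 in iPSCs were those of Hist1h2ba, Hist1h2aa and H1fnt. Hist1h2ba and Hist1h2aa, the testis-specific H2B and H2A genes, start 305 bases apart in opposite directions, so their windows share reads. Hist1h2ba had 0.203 and 0.382 RPKM in MEFs, 0.644 and 0.292 in pre-iPSCs, then 0.807 and 0.789 in iPSCs, and Hist1h2aa had 0.271 and 0.414, 0.736 and 0.357, and 0.652 and 0.724. In both, the iPSC libraries lay above the MEF libraries. The differences in iPSCs against MEFs were 1.75 ± 0.43 for Hist1h2ba (edgeR adjusted p = 0.0052) and 1.32 ± 0.42 for Hist1h2aa (adjusted p = 0.031). H1fnt, a linker histone of spermatids, had 0.237 and 0.382 RPKM in MEFs, 0.644 and 0.455 in pre-iPSCs, with 0.714 and 0.757 in iPSCs (difference 1.56 ± 0.42, adjusted p = 0.010). Hist1h1t, the testis-specific H1 gene, was tested and not called, with 0.305 and 0.828 RPKM in MEFs, 0.368 and 0.455 in pre-iPSCs, then 0.559 and 0.691 in iPSCs (difference 0.44, adjusted p = 0.49). No RNA of the 3 called genes was listed in either MEF or either iPSC library. Hist1h2ba had 6 to 26 reads in a library.

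Around the TSS, the H3K4me3 of Hist genes was low just upstream, with 0.128 to 0.329 RPKM between 200 bp upstream and the TSS. In 5 of the 6 libraries it was higher after the TSS, with 0.327 to 0.957 RPKM in the first 150 bp, and in pre-iPSC library 2 it was 0.213 there. H3 over the same spans did not rise in MEF library 1 (0.0575, then 0.0545 RPKM) or pre-iPSC library 2 (0.0527, then 0.0516), and rose in the others. The H3K4me3 level was 0.118 to 0.364 between 200 and 350 bp, within most of the genes, and 0.626 to 1.32 between 400 and 900 bp, beyond most of their ends. The Hist models held a larger share of repeated words than the windows as a whole (medians of 56.6% and 19.3%). They cover the first 150 bp as well as most of the H3K4me3 dip at 200 to 350 bp. The share was not taken by position, and its part in the dip was not tested. Replacement variants had 0.5 to 1.6 RPKM between 200 and 350 bp.

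**Figure D5:**
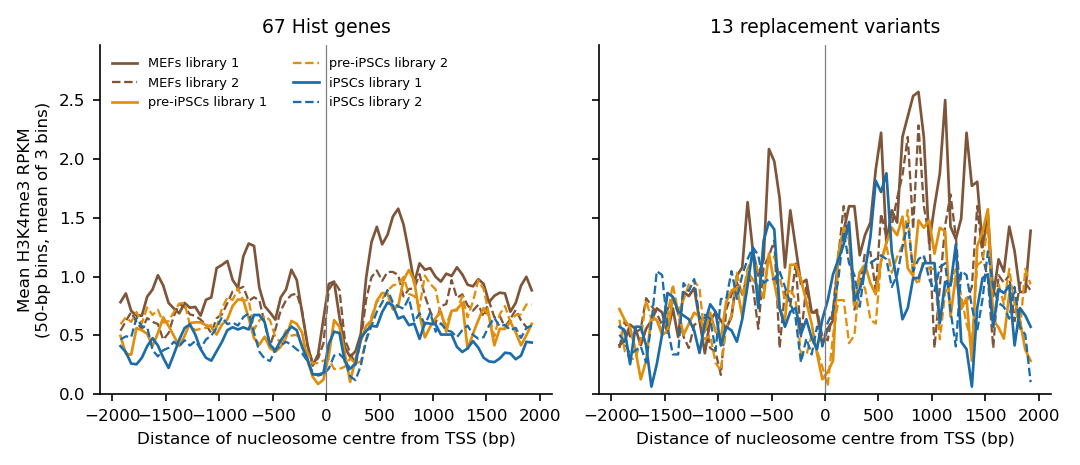
Mean H3K4me3 RPKM of nucleosome centres in 50-bp bins, averaged over 3 neighbouring bins, by distance from the TSS for 67 Hist genes (left) and 13 replacement variants (right), in each library. In 5 of the 6 libraries Hist genes show a narrow peak after the TSS and a dip near 250 bp, which pre-iPSC library 2 lacks, and in all 6 the level is higher near 700 bp, with both MEF libraries above both iPSC libraries there.

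Many Hist promoters reached 0.5 RPKM of H3K4me3 while little of their mRNA was counted, above all in MEFs. This is a lower bar than in the study, which took promoters over 1 RPKM within 500 bp of the TSS as marked. The mean Hist level beyond 1500 bp from the TSS was itself 0.826 and 0.615 RPKM in MEFs. It was 0.523 and 0.661 in pre-iPSCs, then 0.349 and 0.530 in iPSCs. Reaching 0.5 RPKM therefore does not set a promoter apart from its surroundings. Of the 54 Hist promoters with at least 0.5 RPKM of H3K4me3 in MEFs, 40 (74.1%) had under 1 FPKM, against 25% of such promoters over all genes. In pre-iPSCs it was 24 of 47 (51.1%, against 27%) and in iPSCs 13 of 28 (46.4%, against 30.4%). Of the marked variant promoters 0 of 10, 1 of 11 and 1 of 11 were so. The Hist genes marked and under 1 FPKM in MEFs were 33 of 41 without a poly(A) signal (80.5%) and 7 of 13 with one (53.8%). Repeated words made up a median of 56.6% of Hist models and 19.3% of their TSS windows. The parts of unique mapping and of any poly(A) selection in these counts were not tested. Across the 67 Hist genes, Pearson's r between mean H3K4me3 RPKM and log2(mean FPKM + 1) was 0.02 in iPSCs, 0.13 in pre-iPSCs, then 0.12 in MEFs; across all genes of the tables it was 0.50, 0.59 and 0.65. These are descriptions across genes, which are not independent replicates, and neighbouring Hist genes share reads.

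H3K27me3, the Polycomb mark of repressed genes, was scarce at Hist genes. The median Hist promoter had 0.0265 to 0.0864 RPKM in the 6 libraries, against 0.182 to 0.259 for all genes and 0.141 to 0.159 for the variants, and only 8 histone promoters had enough reads to be tested. H1foo, the linker histone of oocytes, was the one called. It had 0.182 and 0.185 RPKM in MEFs, 0.759 and 0.397 in pre-iPSCs, then 0.576 and 0.746 in iPSCs, with all later libraries above MEFs. Its differences from MEFs were 1.65 ± 0.45 in pre-iPSCs (edgeR adjusted p = 0.012) and 1.77 ± 0.44 in iPSCs (adjusted p = 0.0040). This is 1 of 8 in each comparison (12.5%), against 8.1% and 11.2% of all promoters tested (5.01% and 7.33% higher, 3.09% and 3.88% lower). Between pre-iPSCs and iPSCs 0 of 8 were called, against 0.798% (0.663% higher and 0.135% lower), and none of the 8 had an unadjusted p under 0.05 there, against 11.4% of all promoters tested. DESeq2 called no histone promoter for H3K27me3 and at most 0.272% of all promoters in a comparison. H1foo lost its call in pre-iPSCs without either MEF library or without pre-iPSC library 1, and its call in iPSCs without MEF library 2 or without iPSC library 2.

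Hist3h2ba had the highest H3K27me3 of the histone promoters in both MEF libraries but not in pre-iPSCs or iPSCs, at 0.697 and 0.662 RPKM in MEFs, 0.338 and 0.275 in pre-iPSCs, then 0.432 and 0.298 in iPSCs. Both MEF libraries lay above the other 4. The difference in pre-iPSCs against MEFs, -1.14 ± 0.39, was not called (edgeR adjusted p = 0.052). Its H3K9me3 was 0.426, 0.125 and 0.298 RPKM and its H3K4me3 was 1.12 and 0.700, 1.01 and 0.779, and 0.621 and 0.724 in the same order. The neighbouring promoter of Hist3h2a had 0.182 and 0.0794 RPKM of H3K27me3 in MEFs, 0.0281 and 0.214 in pre-iPSCs, then 0.288 and 0.239 in iPSCs. It had 1 to 10 reads in a library, too few for the test.

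H3K9me3, a heterochromatin mark measured in 1 library of each cell type and so without a replicate check, had a median at Hist promoters of 0.0328 RPKM in MEFs, 0.0936 in pre-iPSCs, then 0.0993 in iPSCs, against 0.197, 0.218 and 0.265 for all genes. Hist1h2ba and H1fnt alone reached 0.5 RPKM. Hist1h2ba had 0.623, 0.593 and 0.397 RPKM and H1fnt 0.426, 0.655 and 0.529, and neither changed by 2-fold in any comparison, against 24.9%, 24.8% and 30.2% of all promoters that reached the minimum in pre-iPSCs against MEFs, iPSCs against pre-iPSCs, then iPSCs against MEFs (9.98%, 18.3% and 20.1% higher and 15%, 6.57% and 10.1% lower).

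Total H3 around Hist promoters was low in every library. The median Hist promoter had 0.1 and 0.0991 RPKM of H3 in MEFs, 0.0693 and 0.0938 in pre-iPSCs, then 0.116 and 0.103 in iPSCs. For all genes the medians were 0.218 and 0.207, 0.550 and 0.204, and 0.408 and 0.238, so that pre-iPSC library 1 and iPSC library 1 stood apart. The median variant was at 0.543 and 0.420 in these libraries, and the ratio of Hist to all genes was 0.126 and 0.284 in these libraries against 0.432 to 0.478 in the other 4. No promoter was called for H3 in any comparison (0% of 19560 with edgeR), and DESeq2 called no histone promoter; of 72 histone promoters, 2, 1 and 0 had an unadjusted p under 0.05 in pre-iPSCs against MEFs, iPSCs against pre-iPSCs, then iPSCs against MEFs, against 1.91%, 0.537% and 1.52% of all promoters. Without pre-iPSC library 2, 19 of 61 Hist promoters were lower and none higher in pre-iPSCs against MEFs, with 3 variants higher and 1 lower, and 8 Hist promoters and 1 variant were higher in iPSCs against pre-iPSCs. Over all 19598 promoters tested, 17.4% were then lower and 6.00% higher in pre-iPSCs against MEFs, and 10.5% were higher in iPSCs against pre-iPSCs. Those counts leave pre-iPSC library 1, the library farthest from the rest, as the only pre-iPSC library.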

How the data were processed

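The labels gave cell type and mark, and libraries titled as repeats were taken as library 2. The study describes the 2 libraries of RNA, H3, H3K4me3 and H3K27me3 as biological replicates. Nothing gives the clone of a library, so p-values measure the spread between these libraries, whose source in clone or culture is not known. The histone genes, the classes and all gene lists were chosen with earlier results of these data known. The gene at each symbol and its coordinates are those of the deposited tables (mm9).

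The authors aligned RNA-seq reads with TopHat 2.0.4, kept unique reads and computed the deposited FPKM with Cuffdiff 2.0.2; the 2 tables, normalized separately, hold library 1 and library 2 of all cell types. For ChIP-seq they aligned with Bowtie 1.0.1, kept unique reads of at most 2 mismatches, moved reads by 73 bp and used GeneTrack to call nucleosomes; deposited for each call are its count of reads and a fuzziness score, which was not used. Calls held 74.4% to 83.3% of unique reads, from 12007350 reads in a mark library to 108211816 in an H3 library. The depth of the RNA-seq libraries was read from the steps of low FPKM values.

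For expression, limma 3.58.1 with a trended prior was run on log2(FPKM + 1) of genes that averaged 0.5 FPKM, with the table as a term. Reads of calls centred within 1000 bp of a TSS went into the quasi-likelihood test of edgeR 4.0.16 after filterByExpr and TMM, at an adjusted p below 0.05, with no block. SEs of edgeR are the difference over the square root of F. H3K9me3 has no test, and 2-fold was counted where 0.5 RPKM was reached. The scripts were checked on simulated data. Named genes were the variants past the filter, the 10 highest Hist genes, the 3 largest called rises and falls of Hist genes per comparison, called promoters up to 3 per direction, and up to 5 called genes per list; the other called Hist genes are named with their differences. Sequences and stop codons came from NCBIM37, which is mm9, with GENCODE M1. Alternatives were another pseudocount, no filter, quantile normalization, no table term, DESeq2, scaling to unique reads, a 500-bp window, calls of at least 2 reads, a block for the library number, and leaving out each library.

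Deviations of same-numbered RNA-seq libraries correlated at 0.35, 0.11 and -0.20 in pre-iPSCs with MEFs, iPSCs with pre-iPSCs and iPSCs with MEFs, so the numbers were not taken to mark a shared clone or culture; the limma fit nevertheless blocks on the number, since the table is a term in it. For the marks the 9 such values were 0.80 for H3 in iPSCs with pre-iPSCs and -0.06 to 0.12 in the rest, and the edgeR fits had no block.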

Additional observations from a re-analysis of the deposited data

How the results depend on the processing

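Recomputed under other settings or without single libraries, 111 counts of called histone genes or promoters stayed within 1.5 times the reported count and 40 did not. A reported count of 0, as for H3 in every comparison, stays within that range only by remaining 0. For expression, 4, 1 and 16 genes were called in pre-iPSCs against MEFs, iPSCs against pre-iPSCs and iPSCs against MEFs. Of all genes tested, 16.4%, 8.62% and 25.9% were called. With low genes kept, the counts were 1, 0 and 8, against 7.33%, 4.65% and 14.0% of all genes, and with quantile normalization they were 7 and 3 in the first 2, against 15.9% and 9.82%. Leaving out 1 library gave 1 to 11, 0 to 11 and 1 to 22. Over these subsets the share of all genes called in iPSCs against MEFs moved as well. It was lowest without iPSC library 1 and highest without MEF library 1. Without the replicate block, which here is the term for the table, the counts of histone genes were 3, 2 and 16. A crossed pairing of iPSC and MEF libraries, added after the data were seen, gave 19 in iPSCs against MEFs, against the 16 reported.

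For H3K4me3, scaling to unique reads gave 5 calls in pre-iPSCs against MEFs and 23 in iPSCs against MEFs; in the latter DESeq2 gave 0, a 500-bp window 3, and leaving out 1 library 1 to 7, against 0.600%, 6.05% and 3.24% to 12.5% of all promoters. The scaling to unique reads called 7.74% of all promoters in pre-iPSCs against MEFs (1.31% higher and 6.43% lower). In iPSCs against MEFs it called 18.2% of them. For H3K27me3, DESeq2 gave 0 where 1 was called, with the share of all promoters given above. A 500-bp window gave 0 in pre-iPSCs against MEFs, and H1foo lost its call without some of the libraries, as given above. For H3, leaving out 1 library gave 0 to 23 in pre-iPSCs against MEFs and 0 to 9 in iPSCs against pre-iPSCs. For H3K9me3, no histone promoter passed 2-fold under the reported settings, where 24.9%, 24.8% and 30.2% of all promoters that reached the minimum did. A 500-bp window gave 1, 2 and 2, and scaling to reads in calls gave 2, 1 and 1, in the order of comparisons above. A replicate block in the tests of marks left every count within 1.5 times the reported one. No called gene reversed. Leaving out a library assumes that the one left in its group varies like the rest. The causes were not tested, and low fragment counts limit the Hist genes.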
